A study of Bos taurus with 16 samples.

Results

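Interferon-stimulated genes are switched on when a cell senses interferon, and their products restrict viruses and tune the response. Type I interferons bind a receptor made of IFNAR1 and IFNAR2, the attached kinases JAK1 and TYK2 phosphorylate STAT proteins, and these enter the nucleus with IRF9 and bind interferon response elements in the promoters of these genes. Interferon gamma signals through another receptor. In cattle the same programme is well known from the uterus and from circulating leukocytes of early pregnancy, where the conceptus secretes interferon tau. Here 43 such genes (44 names, since DDX58 and RIGI are names of 1 gene) were described in RNA sequencing libraries of bovine follicle aspirates.

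Of the 43 genes, 30 were measured, out of 12429 genes with a symbol in the files. STAT2, RIGI, IFIH1, ZBP1, IFIT2, CMPK2, IFI44, IFI44L and EPSTI1 had no matching accession with counts, IFIT1, BST2 and GBP2 had no entry in the gene table used, and these 12 genes were not analysed here. The name IFITM3 belongs to 2 genes in that table, LOC777594 and LOC282255, so it was not counted as a member and both are given separately. Counts of all accessions of a gene were summed and scaled by the total transcript counts of the library, and the level is given as CPM, the counts of a gene per 1000000 transcript counts. Since CPM do not account for transcript length, levels are compared between libraries and not between genes.

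The 16 libraries were labelled control (9) or treatment (7), and the labels do not say what treatment stands for. The series title concerns granulosa cells, the oestradiol-making somatic cells of the ovarian follicle, after a uterine disease has resolved. All animals were lactating Holstein cows of a cohort of 45 on an ovulation synchronisation programme of gonadotropin-releasing hormone and prostaglandin, and the dominant follicle was aspirated through the vagina 63 ± 3 days after calving. Cows of the cohort that had metritis were given ceftiofur hydrochloride, and the labels do not tie that to single libraries. The labels' protocols describe pelleted, washed granulosa cells, while the tissue field reads blood for each library. Nothing in the labels ties a library to a cow, and each p-value below therefore reflects only how much these libraries scatter. Total counts ranged from 8111862 to 14348753 per library, and 3 counts, the upper limit that a count of 0 allows, equal 0.212 to 0.375 CPM. These limits cover counting error only.

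The libraries were of 2 kinds, read from the inhibin subunit gene INHA, a granulosa product. In 9 libraries INHA exceeded 1000 CPM (1759 to 3041), and these are called granulosa-rich. This kind holds 5 control libraries (replicates 2, 3, 4, 7 and 8) and 4 treatment libraries (replicates 4, 5, 6 and 7). The other 7 are control libraries 1, 5, 6 and 9 with treatment libraries 1, 2 and 3. In those, INHA was under 200 CPM (0.404 to 111) and monocyte and leukocyte genes were high, so these are called leukocyte-rich. CD14 lay between 1859 and 4031 CPM in the leukocyte-rich and between 5.32 and 332 CPM in the granulosa-rich libraries. The kinds come from the data and are not groups of the study, so their differences are described without a test. In such mixed samples, fewer cells of a type and less RNA per cell cannot be told apart. All values below follow the order of replicates just given.

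The medians of most interferon-stimulated genes were higher in leukocyte-rich libraries, but few genes separated the kinds without overlap. The share of all features with a higher median there was not computed, so the direction of the medians is not read as a trait of these genes. The median of the leukocyte-rich libraries exceeded that of the granulosa-rich ones for OAS1X by 12.2-fold, for DTX3L by 7.36-fold, for OAS1Y by 7.23-fold and for PARP14 by 5.13-fold. Of the 26 members that passed a filter on low counts over the 4 combinations of kind and label, 5 were higher in every leukocyte-rich library than in any granulosa-rich library, namely OAS1X, OAS1Z, PARP14, DTX3L and XAF1, and 0 were lower in every one. Among all 11468 features that passed, 10.3% did the former and 5.25% the latter. XAF1, at most 0.549 CPM in granulosa-rich libraries, did not pass the filter within that kind. It was among the 26 through the leukocyte-rich libraries, so its lack of overlap was partly set by the filter. The ratio was much smaller for IFITM1 (1.22), IFIT5 (1.40) and HERC6 (1.79), and IFI27 lay the other way, with a median of 56.0 CPM in granulosa-rich and 19.5 CPM in leukocyte-rich libraries.

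**Figure D1:**
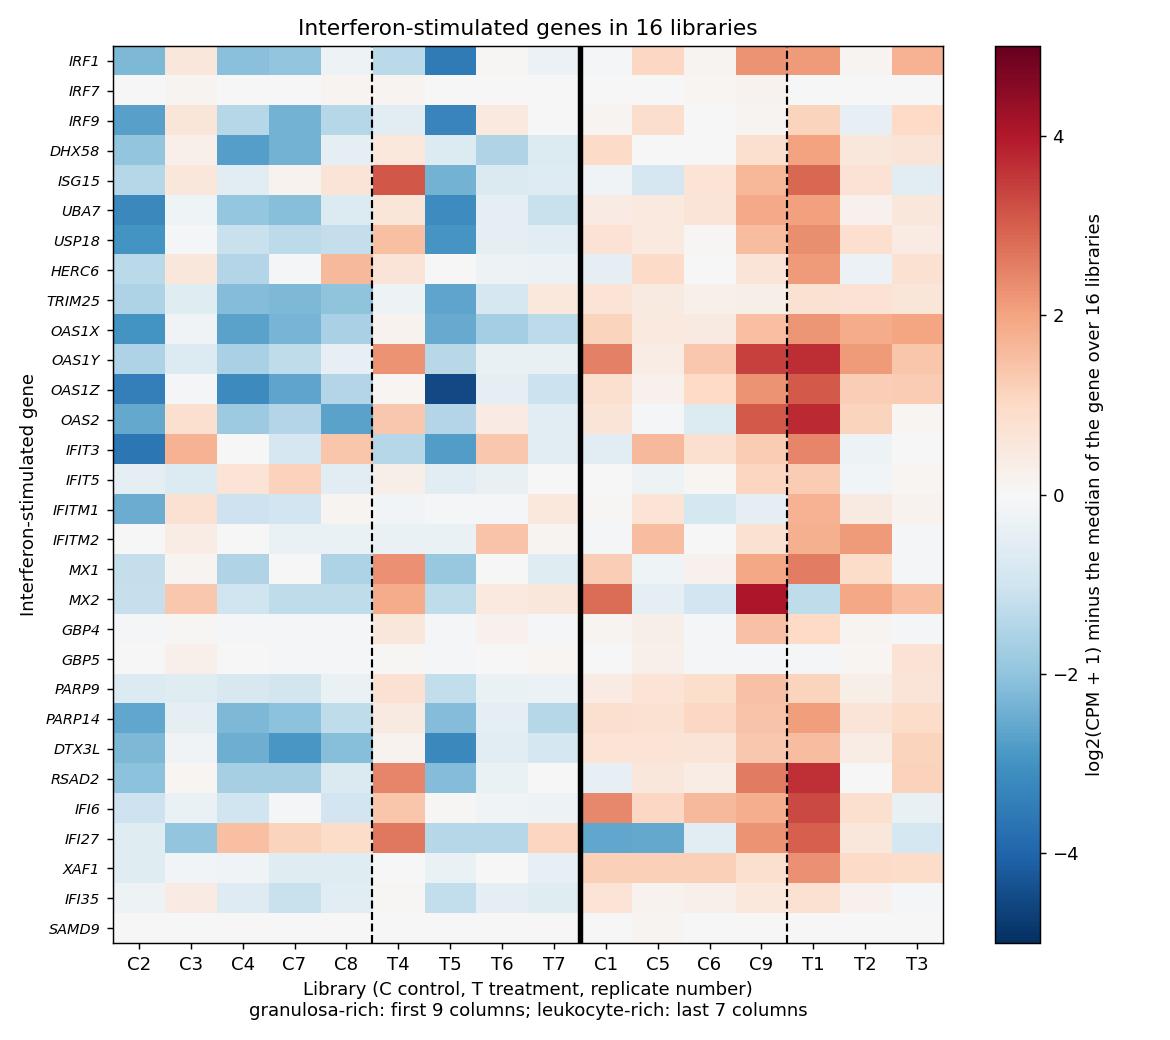
Levels of the 30 measured genes in the 16 libraries, as log2(CPM + 1) minus the gene's own median over all libraries. Columns 1 to 9 are granulosa-rich and the last 7 leukocyte-rich libraries. Treatment replicates 4 and 1 and control replicates 3 and 9 stand out in their kind across many rows.

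Within each kind, a few libraries stood high across much of the list. Among the 9 granulosa-rich libraries, treatment replicate 4 had the highest value for 15 of the 22 members that passed the filter there, against 16.4% of all 9272 features. It exceeded the median of the other 8 by more than 2-fold for 17 of the 22 (15.6% of all features). Control replicate 3 did so for 16 of 22 (19.7% of all features), and treatment replicate 6 for 10 (15.5% of all features). Treatment replicate 5 was lowest for 8 members and control replicate 2 for 7, beside 28.6% and 7.13% of all features. Among the 7 leukocyte-rich libraries, treatment replicate 1 had the highest value for 22 of 26 members (12.8% of all 9912 features) and exceeded the median of the others by over 2-fold for 20 (10.4% of all features). Control replicate 9 exceeded it by over 2-fold for 12 (10.2% of all features). Libraries of both labels were thus high across much of the list, treatment replicate 4 and control replicate 3 among the granulosa-rich and treatment replicate 1 and control replicate 9 among the leukocyte-rich ones. These libraries were singled out after their values were seen, so the counts are a description.

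Depth and cell content of these libraries are given beside their values. Control replicate 9, treatment replicate 1 and treatment replicate 4 held the fewest transcript counts, with 8004595, 8991820 and 9099297, and the part of depth in the pattern was not tested. In treatment replicate 4 the summed level of 10 pan-leukocyte markers was 814 CPM, below control replicate 3 (1069 CPM) and treatment replicate 6 (913 CPM). Its summed level of the 10 measured monocyte and macrophage markers, at 1854 CPM, was the highest of the granulosa-rich libraries (control 21.7 to 763, treatment otherwise 345 to 558 CPM). Leukocyte-rich libraries had 5455 to 7715 CPM of pan-leukocyte markers. Treatment replicate 4 lay above the median of the leukocyte-rich libraries for 11 of the 22 members, and for ISG15 above all 7 of them. Control replicate 3 did the former for 4 members. The part of cell content in the levels of treatment replicate 4 was not tested. Plasmacytoid dendritic cells, specialised makers of type I interferon, had 5 measured markers with a summed level of 3.08 CPM in treatment replicate 4 and at most 5.19 CPM in any granulosa-rich library.

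**Figure D2:**
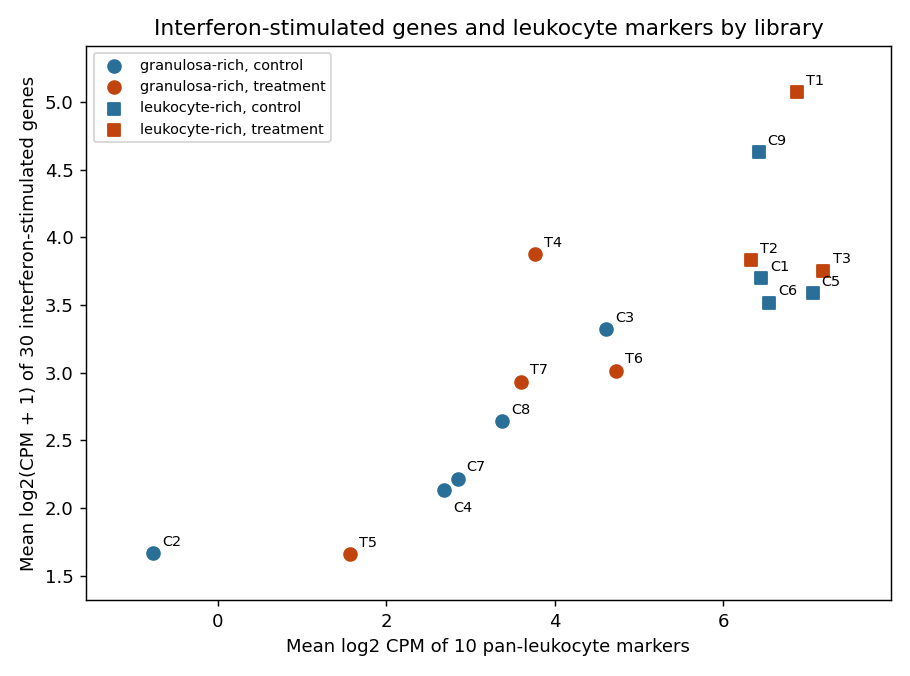
Each point is a library: the x axis is the mean log2 CPM of 10 pan-leukocyte markers, the y axis the average log2(CPM + 1) over 30 members, with circles for granulosa-rich, squares for leukocyte-rich, blue for control (C) and orange for treatment (T). Treatment replicates 4 and 1 and control replicate 9 lie above libraries with a like marker level.

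The comparison the labels give was made within each kind of library. In the granulosa-rich libraries (5 control, 4 treatment), fitted values were higher with the treatment label for 18 of 22 tested members and lower for 4, against 52.9% and 47.1% of all 9272 features. The members' median log2 fold change was 0.74 and that of all features 0.04. With edgeR's quasi-likelihood test, 0 members and 0% of the 9272 features had an adjusted p under 0.05. At an unadjusted p under 0.05 there was 1 member, OAS1Y, and 433 features in all (4.67%). DESeq2 called 26 features (0.28%), of which 0 were members, and 2 members had an unadjusted p under 0.05 there (639 of all 9272 features). Without treatment replicate 4, 13 of 22 members had higher values (50.7% of all features) and the median was 0.18. Without control replicate 3, 17 of 21 had higher and 4 had lower values (55.5% and 44.5% of all features), the median was 1.32, and TRIM25, OAS2, DTX3L and RSAD2 had an unadjusted p under 0.05 (6.52% of all features) with 0 features past the adjustment. With the pan-leukocyte score as a covariate, 16 of 22 were higher (4584 of all 9272 features), with a median of 0.44. Markers of other cells differed in direction in these libraries. Fitted values were higher with the treatment label for all 8 of the tested monocyte and macrophage markers (median log2 fold change 1.24), 8 of 9 pan-leukocyte markers (0.27) and 9 of 10 T and NK cell markers (0.62), and lower for 5 of 6 theca and stromal markers (-1.87) and for the 1 tested erythroid marker (-1.49). CD163 and C1QB were at 0 in all 5 control libraries. In treatment replicates 4, 5, 6 and 7, CD163 had 4, 15, 1 and 2 counts and C1QB 2, 0, 3 and 0. A count of 0 allows up to 3 counts, so C1QB does not tell the labels apart.

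In the leukocyte-rich libraries (4 control, 3 treatment), fitted values were higher with the treatment label for 23 of 26 tested members and lower for 3, against 51.1% and 48.9% of all 9912 features. The members' median log2 fold change was 0.49 and that of all features 0.01. edgeR called 0 members and 0% of all features. At an unadjusted p under 0.05 there was 1 member, OAS1X, and 259 features in all (2.61%), and DESeq2 called 0. Without treatment replicate 1 the direction of the list turned, with 8 of 26 members higher (49.8% of all features), 18 lower (50.2%) and a median of -0.29. It was 0.84 without control replicate 9 and 0.81 without treatment replicate 2. With the pan-leukocyte score as a covariate, 23 of 26 were higher (4910 of all 9912 features), with a median of 0.49. Pan-leukocyte markers summed to 6855 to 7715 CPM in control and 5455 to 6767 CPM in treatment. T and NK cell markers summed to 171 to 1337 CPM in control and 535 to 1419 CPM in treatment, and theca and stromal markers to 525 to 2259 CPM in control and to 7791, 10949 and 400.1 CPM in treatment replicates 1, 2 and 3. The theca and stromal sums came chiefly from collagen genes, such as COL1A2 at 176 to 6009 CPM in leukocyte-rich libraries. The theca genes CYP17A1 and INSL3 were at most 13.2 and 3.11 CPM there. Granulosa markers were highest in treatment replicate 1, with a sum of 5530 CPM against at most 362 CPM in the other 6. Plasmacytoid dendritic cell markers summed to 40.5 to 129 CPM in control and 4.64 to 31.0 CPM in treatment, without overlap. Among all single features, 1.85% were higher in every control library. The sum came chiefly from LILRA4, which overlapped, with 15.2 to 123 CPM in control and 0.0819 to 24.1 CPM in treatment. BLNK overlapped as well. Of the 3 tested markers, 1 had higher and 2 had lower fitted values in treatment. The part of the T and NK, theca and stromal, granulosa and plasmacytoid content in the result was not tested.

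**Figure D3:**
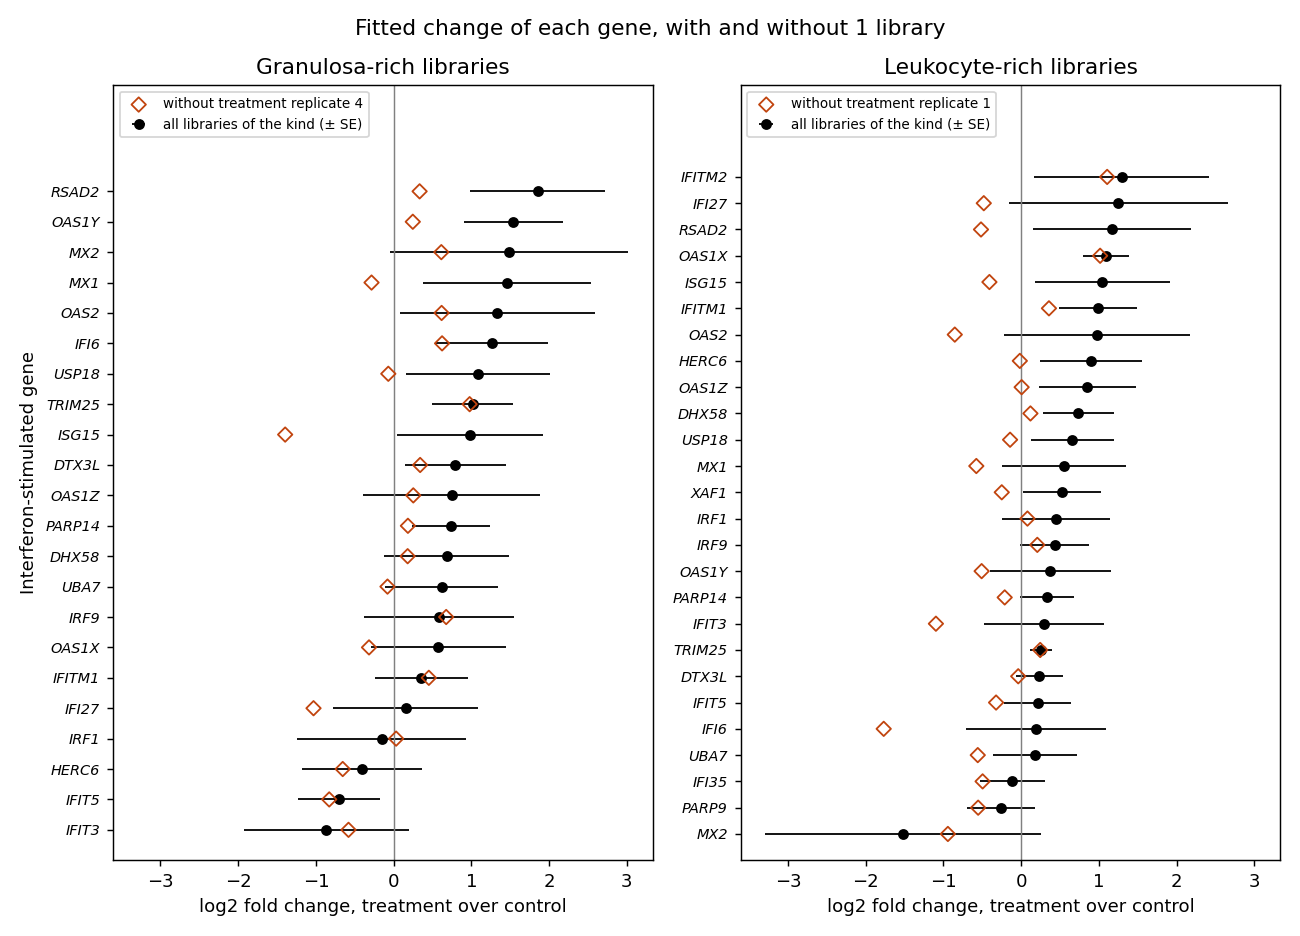
Fitted log2 fold change (treatment over control) with SE of each tested gene, in the 9 granulosa-rich (left) and 7 leukocyte-rich libraries (right). Open diamonds give the value without treatment replicate 4 (left) or 1 (right). Most diamonds lie to the left of the filled points.

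Over all 16 libraries, 21 of 25 tested members had higher and 4 had lower fitted values (52.1% and 47.9% of all 9653 features), 0 had an unadjusted p under 0.05 (1.69% of all features did), and edgeR called 0 features, as did DESeq2. Without treatment replicate 1, 10 of 25 were higher (49.3% of all features). When library kind entered the model as a covariate, 22 of 25 were higher (5466 of all 9653 features). There 2 members had an unadjusted p under 0.05 (242 of all 9653 features). They were RSAD2 at 1.56 ± 0.68 (SE) and TRIM25 at 0.70 ± 0.32 (SE), without passing the adjustment (adjusted p = 0.9993 for both, edgeR). Whether the treatment effect differed between the kinds was tested by an interaction term. The fitted difference, leukocyte-rich minus granulosa-rich, was above 0 for 10 of 26 members and below 0 for 16 (47% and 53% of all features). 0 of 26 members had an unadjusted p under 0.05 there (5.31% of all 11468 features did), and 0 features passed (31 with DESeq2, 0.27%, 0 of them members).

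The transcription factors were IRF1, induced chiefly by interferon gamma, IRF9, the DNA-binding partner of the STAT proteins, and IRF7, which amplifies interferon production. IRF1 had 1.43, 16.3, 1.70, 1.95 and 8.63 CPM in granulosa-rich control and 3.52, 0, 11.2 and 8.50 CPM in granulosa-rich treatment libraries. Among leukocyte-rich libraries the values were 10.0, 22.8, 11.8 and 53.5 CPM in control and 49.0, 11.6 and 37.3 CPM in treatment. The groups overlapped in both kinds, and in treatment replicate 4 IRF1 was below the median of the other granulosa-rich libraries, unlike most members. IRF9 lay between 0.305 and 18.6 CPM in granulosa-rich and between 8.60 and 27.0 CPM in leukocyte-rich libraries. IRF7 had at most 1 count in any library.

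DHX58, also called LGP2, is a helicase that regulates the viral RNA sensors of its family, and it was the only helicase of that family on the list with counts. It had 1.67, 11.4, 0.566, 1.05 and 6.47 CPM in granulosa-rich control and 14.1, 5.49, 2.67 and 5.51 CPM in granulosa-rich treatment libraries. In leukocyte-rich libraries the values were 19.5, 9.70, 9.29 and 17.4 CPM in control and 40.8, 14.3 and 15.5 CPM in treatment. The treatment libraries with the highest values were replicates 4 and 1, and the groups overlapped. The fitted log2 fold change was 0.68 ± 0.81 (SE) in granulosa-rich and 0.74 ± 0.45 (SE) in leukocyte-rich libraries.

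ISG15 is a ubiquitin-like protein that is attached to other proteins by the enzyme UBA7 and the ligase HERC6 in cattle and removed by USP18, which also dampens receptor signalling. ISG15 (NM_174366.1) had 8.81, 38.4, 17.3, 29.1 and 39.9 CPM in granulosa-rich control and 224, 4.17, 15.0 and 15.7 CPM in granulosa-rich treatment libraries. The leukocyte-rich libraries held 22.3, 13.8, 41.0 and 82.3 CPM in control and 191, 42.3 and 17.4 CPM in treatment. A single treatment library was thus far above the rest in each kind, while the other treatment libraries lay within or below the control range. In granulosa-rich libraries the fitted log2 fold change of ISG15 was 0.98 ± 0.94 (SE) with all 9 libraries -1.40 (unadjusted p = 0.0491, adjusted p = 0.9986, edgeR) without treatment replicate 4, and at most 1.37 without any other single library. In leukocyte-rich libraries it was 1.05 ± 0.87 (SE), -0.41 without treatment replicate 1, and at most 1.63 without any other single library.

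**Figure D4:**
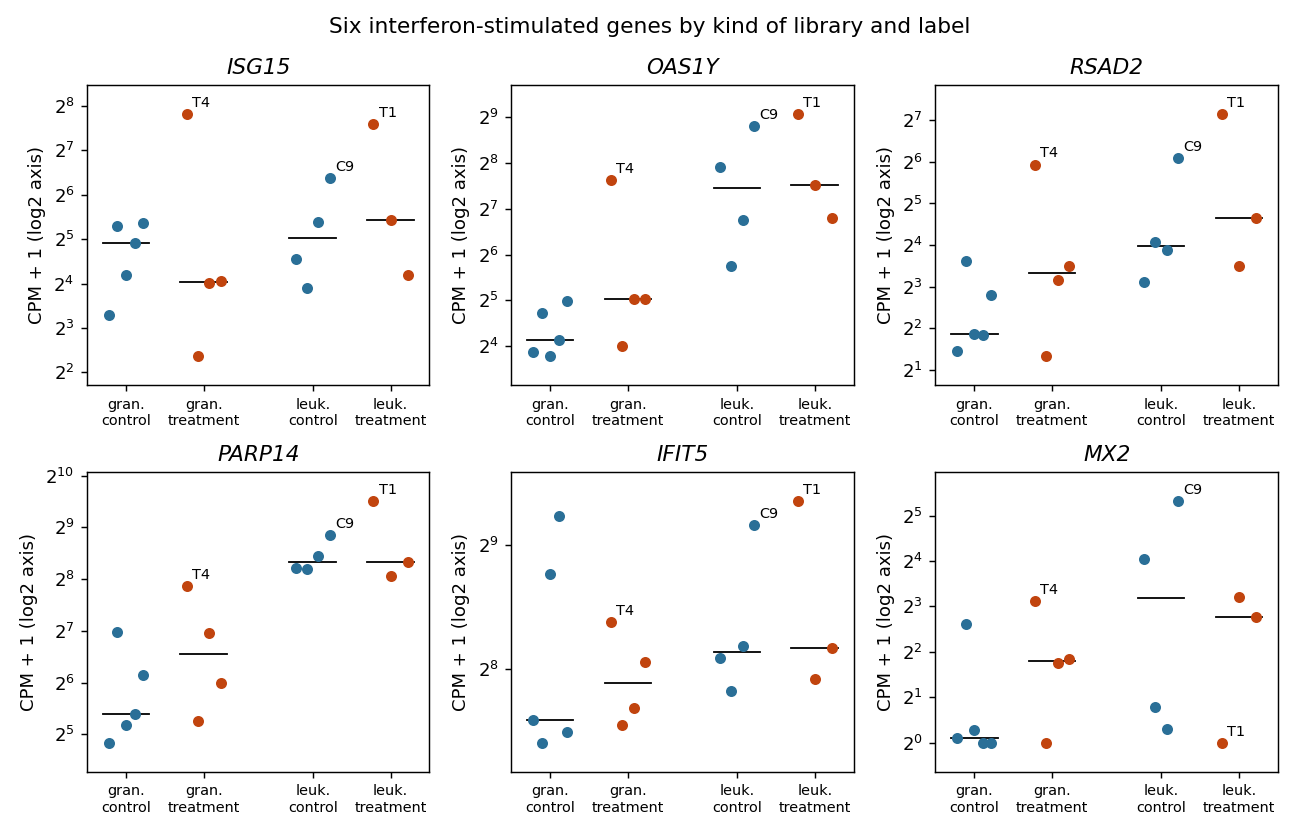
CPM + 1 on a log2 axis for ISG15, OAS1Y, RSAD2, PARP14, IFIT5 and MX2 by kind of library (gran. for granulosa-rich, leuk. for leukocyte-rich) and label. Points are libraries and bars are medians, with treatment replicates 4 (T4) and 1 (T1) and control replicate 9 (C9) marked. MX2 had 0 counts in T1, the library with the highest value of the other 5 genes among leukocyte-rich libraries.

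The partners of ISG15 had the same 2 libraries on top. USP18 was at 34.2 CPM in treatment replicate 4, against 0.555 to 11.0 CPM in the other granulosa-rich libraries, and at 62.4 CPM in treatment replicate 1, against 12.0 to 35.4 CPM in the other leukocyte-rich libraries. UBA7 was at 69.6 CPM in treatment replicate 4 (others 3.89 to 38.8) and at 189 CPM in treatment replicate 1 (others 52.1 to 169). HERC6 had another pattern, with 1.11, 6.83, 0.919, 4.05 and 15.5 CPM in granulosa-rich control and 7.36, 4.27, 3.46 and 3.30 CPM in granulosa-rich treatment libraries, where control replicate 8 was highest. In leukocyte-rich libraries HERC6 had 2.87, 9.34, 4.36 and 7.25 CPM in control and 22.1, 3.36 and 7.93 CPM in treatment.

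TRIM25, a ubiquitin ligase that activates the RNA sensor RIGI, varied little among leukocyte-rich libraries. There it had 191, 161, 140.3 and 147 CPM in control and 199.5, 196 and 179 CPM in treatment. In granulosa-rich libraries it had 39.8, 78.3, 25.4, 23.8 and 28.3 CPM in control and 99.3, 18.0, 66.1 and 169.9 CPM in treatment. The highest granulosa-rich value was in treatment replicate 7 and not in replicate 4. The fitted log2 fold change was 1.02 ± 0.52 (SE, unadjusted p = 0.0784, adjusted p = 0.983, edgeR) in granulosa-rich libraries, 0.44 without treatment replicate 7, and at most 1.33 without any other single library. Its leukocyte-rich value was 0.26 ± 0.15 (SE).

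The oligoadenylate synthetases sense double-stranded RNA and make the messenger that activates RNase L. Cattle have the OAS1 forms OAS1X, OAS1Y and OAS1Z, which are close copies, so that reads may have been shared between them. OAS1Y (NM_001040606.1) had 13.6, 25.4, 12.8, 16.6 and 30.8 CPM in granulosa-rich control and 195, 15.0, 31.6 and 31.5 CPM in granulosa-rich treatment libraries. Leukocyte-rich libraries had 239, 52.8, 107 and 446 CPM in control and 535, 184 and 109 CPM in treatment. In granulosa-rich libraries OAS1Y had the lowest p of all members, with a log2 fold change of 1.54 ± 0.64 (SE, unadjusted p = 0.0346, adjusted p = 0.983, edgeR), higher in 3 of 4 treatment libraries than in every control library. Without treatment replicate 4 it was 0.25, and without any other single library at most 1.85.

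OAS1X was the only member whose groups did not overlap within a kind. In leukocyte-rich libraries it had 25.4, 15.9, 15.5 and 33.7 CPM in control and 54.6, 42.9 and 46.7 CPM in treatment, so that all 3 treatment libraries lay above all 4 control libraries. The log2 fold change was 1.09 ± 0.29 (SE, unadjusted p = 0.00671, adjusted p = 0.9996, edgeR), and it stayed between 0.95 and 1.32 when each library was left out in turn. A two-sided exact permutation test over libraries on log2(CPM + 1) gave p = 0.0571. The smallest p that its 35 splits allow is 0.0286. OAS1X was picked for its lack of overlap. Of 26 members tested in these libraries, 1 lay higher in treatment without overlap and 0 lower, beside 1.99% and 1.85% of all features. In granulosa-rich libraries OAS1X had 0.555, 9.88, 0.919, 1.46 and 2.91 CPM in control and 12.6, 1.12, 2.77 and 3.93 CPM in treatment, which overlapped. There 0 of 22 members separated the labels in either direction (1.18% and 0.55% of all features).

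OAS1Z had 1.11, 20.2, 1.49, 2.68 and 7.12 CPM in granulosa-rich control and 23.0, 0, 15.2 and 9.83 CPM in granulosa-rich treatment libraries. The leukocyte-rich libraries held 38.3, 24.9, 43.7 and 107 CPM in control and 186, 51.3 and 53.4 CPM in treatment. OAS2, a larger enzyme of the family, was at 15.2 CPM in treatment replicate 4 (other granulosa-rich libraries 0 to 9.97), at 82.5 CPM in treatment replicate 1 and at 52.0 CPM in control replicate 9 (remaining leukocyte-rich libraries 2.99 to 12.8). All 4 measured members of the family had higher fitted values in treatment in both kinds, with 1 unadjusted p under 0.05 in each and 0 past the adjustment. Without treatment replicate 1 the leukocyte-rich values were -0.51 for OAS1Y, -0.85 for OAS2 and 0.01 for OAS1Z, and without treatment replicate 4 the granulosa-rich value of OAS1X was -0.32.

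The IFIT proteins bind foreign RNA and block its translation. IFIT3 went another way than ISG15 in granulosa-rich libraries. It had 0.635, 66.7, 18.8, 10.4 and 51.6 CPM in control and 6.48, 1.93, 50.3 and 12.9 CPM in treatment, so that treatment replicate 4 was among the lower libraries. Leukocyte-rich libraries had 12.5, 61.0, 34.2 and 47.2 CPM in control and 109, 15.8 and 19.4 CPM in treatment, with treatment replicate 1 again on top. The fitted log2 fold changes were -0.86 ± 1.06 (SE) and 0.30 ± 0.77 (SE). IFIT5 lay between 168 and 599 CPM in granulosa-rich libraries, highest in control replicate 7, and between 224 and 654 CPM in leukocyte-rich libraries, highest in treatment replicate 1.

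The IFITM proteins sit in endosomal and plasma membranes and hinder virus entry. They have close copies, so their counts are uncertain. IFITM1 had 1.98, 27.2, 7.21, 7.62 and 17.6 CPM in granulosa-rich control and 14.3, 14.9, 14.6 and 23.0 CPM in granulosa-rich treatment libraries. Among leukocyte-rich libraries the values were 16.7, 25.9, 8.24 and 11.4 CPM in control and 54.4, 21.7 and 17.8 CPM in treatment. The log2 fold change there was 0.99 ± 0.50 (SE, unadjusted p = 0.0886, adjusted p = 0.9996, edgeR), 0.36 without treatment replicate 1, and at most 1.34 without any other single library. IFITM2 was at most 4.51 CPM. Both genes that carry the name IFITM3 were highest in treatment replicate 1, LOC777594 at 89.9 CPM and LOC282255 at 88.0 CPM, and second highest in treatment replicate 4, at 67.8 and 55.7 CPM.

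MX1 and MX2 are dynamin-like GTPases that trap viral particles. MX1 had 0.952, 3.88, 0.566, 3.32 and 0.539 CPM in granulosa-rich control and 20.8, 0.203, 3.56 and 1.89 CPM in granulosa-rich treatment libraries. In leukocyte-rich libraries MX1 had 9.36, 2.87, 4.12 and 16.0 CPM in control and 25.4, 7.46 and 3.29 CPM in treatment. The log2 fold change of MX1 in granulosa-rich libraries was 1.46 ± 1.08 (SE), -0.28 without treatment replicate 4, and at most 2.09 without any other single library.

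MX2 did not follow MX1 in every library. It had 0.0793, 5.08, 0.212, 0 and 0 CPM in granulosa-rich control and 7.69, 0, 2.37 and 2.60 CPM in granulosa-rich treatment libraries. In leukocyte-rich libraries it had 15.5, 0.719, 0.242 and 39.1 CPM in control and 0, 8.19 and 5.82 CPM in treatment. Treatment replicate 1, with the highest MX1, had 0 counts of MX2, which allows up to 0.334 CPM. Control replicate 7 also had 0 counts of MX2, with MX1 at 3.32 CPM. In control replicate 6, MX2 was at 0.242 CPM and MX1 at 4.12 CPM. The guanylate-binding proteins GBP4 and GBP5, interferon gamma-induced GTPases of the immune response to intracellular microbes, were at most 1.87 and 0.759 CPM.

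PARP9 and DTX3L form a complex that modifies histones, and PARP14 adds single ADP-ribose units to proteins. PARP14 had 27.6, 125, 35.2, 40.8 and 69.8 CPM in granulosa-rich control and 231, 37.3, 123 and 62.5 CPM in granulosa-rich treatment libraries. Leukocyte-rich libraries had 294, 292, 346 and 459 CPM in control and 731, 267 and 321 CPM in treatment. Every leukocyte-rich library exceeded every granulosa-rich one, and treatment replicates 4 and 1 led their kinds.

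DTX3L had 13.2, 58.4, 11.5, 7.86 and 14.5 CPM in granulosa-rich control and 75.1, 6.20, 44.4 and 35.3 CPM in granulosa-rich treatment libraries. Among leukocyte-rich libraries the values were 106, 106, 103 and 168 CPM in control and 196, 85.4 and 143 CPM in treatment. The log2 fold changes of PARP14 were 0.74 ± 0.51 (SE) and 0.33 ± 0.35 (SE) in the 2 kinds, and those of DTX3L 0.79 ± 0.65 (SE) and 0.23 ± 0.30 (SE). PARP9 was at most 5.62 CPM.

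RSAD2 (viperin) makes a chain-terminating nucleotide and sits on lipid droplets. It had 1.75, 11.3, 2.62, 2.59 and 5.93 CPM in granulosa-rich control and 60.1, 1.53, 7.91 and 10.3 CPM in granulosa-rich treatment libraries. The leukocyte-rich libraries held 7.59, 15.9, 13.8 and 66.8 CPM in control and 141, 10.3 and 24.0 CPM in treatment. Treatment replicate 4 was 14.1-fold above the median of the other granulosa-rich libraries, treatment replicate 1 was 9.49-fold and control replicate 9 was 4.50-fold above the median of the other leukocyte-rich libraries. The log2 fold change was 1.85 ± 0.87 (SE, unadjusted p = 0.0575, adjusted p = 0.983, edgeR) in granulosa-rich libraries, 0.33 without treatment replicate 4, and at most 2.32 without any other single library. In leukocyte-rich libraries it was 1.17 ± 1.02 (SE), -0.52 without treatment replicate 1, and at most 2.19 without any other single library.

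IFI6 and IFI27 are small mitochondrial and membrane proteins of the interferon response. IFI6 had 0.555, 1.57, 0.637, 2.11 and 0.647 CPM in granulosa-rich control and 7.36, 2.34, 1.88 and 1.73 CPM in granulosa-rich treatment libraries. In leukocyte-rich libraries it had 16.2, 5.66, 9.04 and 10.2 CPM in control and 30.4, 4.59 and 1.52 CPM in treatment. The log2 fold change of IFI6 was 1.26 ± 0.72 (SE, unadjusted p = 0.11, adjusted p = 0.983, edgeR) in granulosa-rich libraries, 0.62 without treatment replicate 4, and 1.93 (unadjusted p = 0.0186) without control replicate 7. In leukocyte-rich libraries it was 0.19 ± 0.90 (SE), -1.77 (unadjusted p = 0.0267, adjusted p = 0.9996, edgeR) without treatment replicate 1, and at most 0.68 without any other single library.

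IFI27 had 18.8, 6.65, 84.7, 64.9 and 56.0 CPM in granulosa-rich control and 186, 10.4, 10.3 and 62.3 CPM in granulosa-rich treatment libraries. Among leukocyte-rich libraries the values were 3.98, 4.13, 19.5 and 141 CPM in control and 241, 43.6 and 15.4 CPM in treatment. In control replicate 3, where most members were high for a granulosa-rich library, IFI27 was the lowest of the 9. XAF1, a pro-apoptotic partner of XIAP, was at most 0.549 CPM in granulosa-rich libraries and between 1.62 and 6.34 CPM in leukocyte-rich ones. IFI35, which forms complexes with NMI, had 0.952, 2.12, 0.495, 0.0811 and 0.647 CPM in granulosa-rich control and 1.43, 0, 0.692 and 0.551 CPM in granulosa-rich treatment libraries. In leukocyte-rich libraries IFI35 had 2.73, 1.62, 1.78 and 2.37 CPM in control and 3.00, 1.72 and 1.27 CPM in treatment. SAMD9, an antiviral translation inhibitor, had at most 1 count in any library.

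Genes of the pathway outside the list were read from lists written for this description. Interferon transcripts were scarce. Of 23 ligand names 6 were measured. IFNG lay between 0.295 and 4.50 CPM in leukocyte-rich libraries and was at most 2.77 CPM in granulosa-rich ones. It was highest in control replicate 9 (4.50 CPM), treatment replicate 1 (4.23 CPM) and treatment replicate 3 (3.63 CPM). IFNB1 was at most 0.297 CPM, and IFNT2, an interferon tau gene, at most 4.86 CPM. Of the receptor and kinase genes, 2 of 6 tested had higher fitted values in treatment in granulosa-rich and 4 of 7 in leukocyte-rich libraries, with 0 unadjusted p under 0.05 in either. IFNAR1 lay between 75.7 and 151 CPM in leukocyte-rich libraries and was at 46.9 CPM in treatment replicate 4 (granulosa-rich range 1.12 to 77.4). The kinase gene JAK1 had a log2 fold change of 0.47 ± 0.58 (SE) in granulosa-rich and 0.35 ± 0.28 (SE) in leukocyte-rich libraries, and the receptor gene IFNLR1 of 0.58 ± 1.10 (SE) in granulosa-rich libraries. Neither treatment replicate 4 nor treatment replicate 1 had the highest value of its kind for any of the tested receptor and kinase genes. Over all features, these libraries were highest in their kind for 16.4% and 12.8%.

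Of the other STAT and IRF factors, 3 of 5 tested had higher values in treatment in granulosa-rich and 1 of 6 in leukocyte-rich libraries. IRF5, a factor of inflammatory macrophages, had a log2 fold change of -1.28 ± 0.53 (SE, unadjusted p = 0.0444, adjusted p = 0.9996, edgeR) in leukocyte-rich libraries, with 12.5 to 27.7 CPM in control and 3.20 to 13.7 CPM in treatment. In granulosa-rich libraries IRF5 was at 1.15 ± 0.91 (SE). STAT3, which carries signals of many cytokines, was at -0.20 ± 0.28 (SE) in leukocyte-rich libraries. Of the sensors and adaptors, 2 of 2 tested and 3 of 7 tested had higher values. MYD88, the adaptor of most Toll-like receptors, was at 0.73 ± 0.34 (SE, unadjusted p = 0.0523, adjusted p = 0.983, edgeR) in granulosa-rich libraries, and the kinase gene TBK1 at 0.86 ± 0.91 (SE). In leukocyte-rich libraries the endosomal receptor genes TLR9 and TLR7 were at -0.79 ± 0.82 (SE) and -0.31 ± 0.40 (SE). Of the genes listed as negative regulators, 5 of 6 and 4 of 6 tested had higher values, with 0 unadjusted p under 0.05. ISG20L2 was on that list without being an established negative regulator of interferon signalling. The phosphatase gene PTPN2 was at 0.68 ± 0.36 (SE) and ISG20L2 at -0.46 ± 0.35 (SE) in granulosa-rich libraries, and ISG20L2 at -0.20 ± 0.14 (SE) and PIAS1 at 0.26 ± 0.32 (SE) in leukocyte-rich ones.

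A further list of 45 interferon-stimulated genes outside the members had 30 measured. Of these, 13 of 19 tested had higher fitted values in granulosa-rich treatment libraries (median log2 fold change 0.43) and 12 of 24 in leukocyte-rich ones (median 0.02), with 1 unadjusted p under 0.05 in each and 0 past the adjustment. They were LGALS9, a galectin of leukocytes, at 2.92 ± 1.23 (SE, unadjusted p = 0.0377, edgeR) in granulosa-rich and LGALS3BP, a secreted glycoprotein, at 0.42 ± 0.15 (SE, unadjusted p = 0.027, edgeR) in leukocyte-rich libraries. LGALS9 had 0 to 2.68 CPM in granulosa-rich control and 2.83 to 13.2 CPM in granulosa-rich treatment libraries. Its control median, 0.108 CPM, was below the level of 3 counts, so the size of this change is uncertain. Next by p were LAP3, an aminopeptidase, at 0.81 ± 0.38 (SE) in granulosa-rich and TRIM34 at -1.37 ± 0.60 (SE) in leukocyte-rich libraries. Treatment replicate 4 was highest for 5 of the 19 and control replicate 3 for 7 (16.4% and 14.8% of all features). Control replicate 9 was highest for 12 of the 24 and treatment replicate 1 for 6 (21.1% and 12.8% of all features).

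The chemokines CXCL9 and CXCL10, which attract T cells and are classical targets of interferon gamma, had another order of libraries than ISG15, and both were chosen after their values were seen. CXCL9 was at 224 CPM in control replicate 9 and 21.8 CPM in treatment replicate 1. CXCL10 was at 205 CPM in control replicate 9, 113 CPM in treatment replicate 1 and 100.2 CPM in treatment replicate 3. In treatment replicate 4, with the highest ISG15 of all libraries, CXCL9 was at 2.42 CPM and CXCL10 at 1.10 CPM, while control replicates 3 and 8 had 23.4 and 24.0 CPM of CXCL10.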

How the data were processed

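Poly(A) RNA of follicle aspirates was sequenced in 16 libraries. Per the labels' protocols, each was made from 200 ng of RNA (integrity 7 or more) with 12 amplification cycles and an unstranded kit. The deposited values are raw whole-number counts for each RefSeq accession. The submitters' processing notes name cutadapt, SAMtools and Bowtie2. What each did, which build and annotation served, and how multi-mapped reads were counted is not given in the sources used here. For this reason genes with several transcripts or close copies, and overlapping or antisense genes, are uncertain, and a gene near 0 everywhere is not read as absent: MAVS, an adaptor that most cells use, was at most 0.203 CPM.

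Genomic accessions (133, 0.712 to 1.92% of counts) were left out. Of 27173 transcript accessions 18973 matched a symbol in RefSeq's table of ARS-UCD2.0 with versions ignored, holding 96.3% of the remaining counts; the rest were kept as features. Library kind was read from INHA (above 1000 or under 200 CPM). Treatment was compared with control by edgeR 4.0.16 (R 4.3.3; quasi-likelihood, robust, TMM scaling, filterByExpr by group), with Benjamini-Hochberg adjustment over all features; SE is the log2 fold change over the square root of F. DESeq2 1.42.0 was an alternative, as were other scalings, no filter, the accession with the most counts, covariates, a replicate block and each library left out. Values were printed in full for the 6 members with the lowest p in each kind, the member of each role with the widest range of log2(CPM + 1), and members without overlap. Other pathway genes were named as the 2 with the lowest p of each list in each kind. One gene that this rule names is not reported here. The members, lists and tests were chosen with earlier results of these data known.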

Additional observations from a re-analysis of the deposited data

Results flagged for a closer look

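In groups of 4 or 5 libraries of one kind and label, the most extreme library was compared with the others on the log2(CPM + 1) scale by its gap to the nearest value over the range of the group, against Dixon's 95% limit. Of 80 groups examined 5 passed, and chance flags about 1 in 20. In leukocyte-rich control libraries, replicate 9 stood apart for UBA7 at 169 CPM (others 59.3 to 69.9), for DTX3L at 168 CPM (others 103 to 106) and, at the low end, for XAF1 at 1.62 CPM (others 2.50 to 2.51). In granulosa-rich libraries, treatment replicate 7 stood apart for IFITM1 at 23.0 CPM (others 14.3 to 14.9) and control replicate 3 for MX2 at 5.08 CPM (others 0 to 0.212). Groups of 3 libraries, such as leukocyte-rich treatment with replicate 1, were not examined. No member passed the interaction test between the kinds.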

How the results depend on the processing

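No member passed or lost an adjusted p of 0.05 under any alternative run. With DESeq2, 26 features were called in granulosa-rich libraries and 31 for the difference between kinds, against 0 with edgeR in both, and the cause was not tested. When each library was left out in turn, the members' median log2 fold change ranged from -0.12 to 0.69 over all libraries, from 0.18 (without treatment replicate 4) to 1.32 (without control replicate 3) in granulosa-rich and from -0.29 (without treatment replicate 1) to 0.84 (without control replicate 9) in leukocyte-rich libraries. For the difference between kinds it ranged from -0.83 (without treatment replicate 1) to 0.42 (without treatment replicate 4), and was also above 0, at 0.02, without control replicate 9. Scaling by library size alone moved the median of all features to 0.19 and that of the members to 0.90 in granulosa-rich libraries. Under settings other than leaving out a library, the sign turned for IRF1, MX2, PARP9 and XAF1 over all libraries, for HERC6, IFI27, IRF1 and IRF9 in granulosa-rich and for XAF1 in leukocyte-rich libraries, and for 9 members in the difference between kinds. The replicate numbers were not taken to pair libraries: the deviations of the 7 same-numbered pairs had correlations from -0.60 to 0.60, 3 of them over 0.1, and 0 pairs correlated best with their own number. With a replicate block the members' median was 0.73 over all libraries, 1.41 in granulosa-rich libraries and -0.21 for the difference between kinds, with 0 features called in each. No paired analysis was possible in leukocyte-rich libraries because their labels share only replicate 1. Depth limits genes near 0, where 3 counts equal up to 0.375 CPM.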
